A study of Mus musculus with 15 samples.

Results

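Slc6a4, the gene of the serotonin transporter, divides the 15 newborn mouse cerebellum libraries of this series into 7 with a level above 6.5 on the log2 scale and 8 with a level below it. The 7 libraries above the limit, called Slc6a4-high here, are GSK-3DKO 2, MCreControl 1, 2, 3 and 4, and NoCreControl 3 and 5. The 8 Slc6a4-low libraries are GSK-3DKO 1, 3, 4 and 5, MCreControl 5, and NoCreControl 1, 2 and 4. The members were chosen by the measured Slc6a4 level, so the split is not a treatment or a genotype, and every difference given is an association with the Slc6a4 level on the same arrays. Slc6a4 is described without a test.

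The study measured RNA of dissociated whole cerebella on Affymetrix arrays, 1 array per library, with 5 libraries in each of 3 groups of C57BL/6 background. The labels give postnatal day 1 in one field and day 2 in another. In GSK-3DKO both isoforms of glycogen synthase kinase 3 are deleted in granule neuron progenitors. In MCreControl only the beta isoform is deleted, by a Cre recombinase driven from Math1 (Atoh1), and the descriptions give the alleles Gska+- and GskBff. NoCreControl carries no Cre and is described as having the kinases intact, with Gska+- in all 5 libraries and GskBff in all but replicate 5, whose description leaves it out. The descriptions of GSK-3DKO list no alleles. Math1-Cre acts in the granule lineage, whereas the RNA came from all cells of the tissue left after a density gradient that the design text describes as enriching for granule neuron progenitors. Each label speaks of 1 replicate without naming a litter or an animal, and the p-values therefore reflect only how these samples vary, which may be technical.

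Several properties of the libraries bear on the split. The row annotated to Gsk3a goes against the label in GSK-3DKO 1 and 3, at 9.47 and 9.37, and in MCreControl 1 and 2, at 8.25 and 8.03, while it is 9.42 to 9.59 in the NoCreControl libraries; results are therefore also given without these 4. Arrays of the Slc6a4-high libraries had interquartile ranges of 3.73 to 3.85 log2, and those of the Slc6a4-low libraries 3.43 to 3.80. The 4 narrowest arrays, GSK-3DKO 3, 4 and 5 and NoCreControl 4, all lie on the low side. The median level of olfactory and vomeronasal receptor genes, which approximates background on these arrays, reached at most 3.70 in the high libraries and lay at 3.58 to 4.11 in the low ones. The Y-linked gene Eif2s3y lay above 8 in 4 of 7 high and 2 of 8 low libraries, and MCreControl 1 had both Eif2s3y (9.03) and Xist (11.96) at high levels.

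Serotonin neurons lie in the raphe nuclei along the midline of the brainstem, and noradrenaline neurons in the locus coeruleus and other groups of the pons and medulla. Their axons reach the cerebellum, but the cell bodies, which hold most of their mRNA, lie outside it. Both cell types package their transmitter with the vesicular monoamine transporter and differ in their synthesis enzymes and in the transporter that takes the transmitter up again.

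The promoters are shown of Slc6a4, which sets the sides by its own level, of Tph2, which separated them, and of Dbh, which did not. Each is the 250 bases before the RefSeq gene start in GRCm38.p6, printed on the gene's own strand. Slc6a4 lies at chr11:76998347-76998596 (plus strand), Tph2 at chr10:115185023-115185272 (minus strand) and Dbh at chr2:27165257-27165506 (plus strand).
Slc6a4: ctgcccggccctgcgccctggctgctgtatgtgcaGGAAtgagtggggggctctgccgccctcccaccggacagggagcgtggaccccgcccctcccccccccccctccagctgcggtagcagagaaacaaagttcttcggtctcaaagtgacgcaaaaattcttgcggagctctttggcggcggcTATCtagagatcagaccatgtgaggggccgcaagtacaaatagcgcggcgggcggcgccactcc
Tph2: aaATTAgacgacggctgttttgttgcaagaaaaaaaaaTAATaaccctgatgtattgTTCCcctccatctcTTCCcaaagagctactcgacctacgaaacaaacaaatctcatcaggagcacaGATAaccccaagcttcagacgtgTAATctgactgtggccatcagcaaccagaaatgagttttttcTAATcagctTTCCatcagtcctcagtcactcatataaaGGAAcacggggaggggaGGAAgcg
Dbh: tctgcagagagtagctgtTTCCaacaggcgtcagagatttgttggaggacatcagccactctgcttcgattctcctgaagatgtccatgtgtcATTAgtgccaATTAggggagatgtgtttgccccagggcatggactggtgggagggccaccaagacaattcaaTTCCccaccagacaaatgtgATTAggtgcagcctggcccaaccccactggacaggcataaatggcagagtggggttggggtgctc
Capitals mark the ETS core GGAA, the homeodomain core TAAT and the GATA core GATA on either strand, so that TTCC, ATTA and TATC are also in capitals. The Slc6a4 window holds 1 GGAA, 0 TAAT and 1 GATA. In the Tph2 window there are 5 GGAA, 4 TAAT and 1 GATA, and in the Dbh window 2 GGAA, 3 TAAT and 0 GATA. Motifs this short are common: 93.4% of 27025 promoters of the same length hold GGAA, 55.3% hold TAAT and 54.1% hold GATA.

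Slc6a4 itself ran without a single clear gap. In the low libraries it was lowest in NoCreControl 2 (3.42), with a median of 5.15 and a highest value of 5.89 in NoCreControl 4. In the high libraries it was lowest in MCreControl 2 (6.77), with a median of 7.16 and a highest value of 8.56 in NoCreControl 3. The step across the limit, 0.88, was about as wide as the step of 0.86 between MCreControl 5 and GSK-3DKO 4 inside the low side and the step of 0.89 between GSK-3DKO 2 and MCreControl 3 inside the high side. The high side holds 1 of 5 GSK-3DKO, 4 of 5 MCreControl and 2 of 5 NoCreControl libraries.

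Tph2, which encodes the rate-limiting enzyme of serotonin synthesis in neurons, rose with Slc6a4. Its level was 3.13, 3.79 and 4.49 (lowest, median, highest) in the low libraries and 5.18, 6.17 and 7.37 in the high libraries. The sides do not overlap, and the 3 libraries with the highest Slc6a4, NoCreControl 3 and MCreControl 3 and 4, also had the highest Tph2 (7.37, 7.18 and 7.04). The fitted difference was +2.53 ± 0.39 (standard error, SE), a 5.79-fold higher level, with a limma adjusted p = 0.0199. Within the groups, Tph2 differed by +3.26 in MCreControl, +2.83 in NoCreControl and +1.37 in GSK-3DKO. The low libraries lay near the receptor gene medians, so the difference can understate the change.

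The other genes of serotonin neurons differed less. Of the 7 measured besides Slc6a4, 1 passed (Tph2), against 0.221% of all genes called higher, and all 7 had a positive difference, against 49.4% of all genes. The median of the 7 was +0.40, beside -0.002 over all genes. Gata3, a transcription factor of serotonin neuron development, differed by +0.72 ± 0.16 (limma adjusted p = 0.0865). In plain means without the group term this row differed by +0.62 and a second, dimmer row of the gene by +0.02. In the fit, the Gata3 partner Gata2 differed by +0.40, the LIM homeodomain factor Lmx1b by +0.39 and the serotonin autoreceptor gene Htr1a by +0.45. The receptor gene Htr5b differed by +0.40 and the degrading enzyme gene Maob by +0.24. These 5 genes had limma adjusted p of 0.239 to 0.545. Fev and Slc22a3 were not measured here.

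The genes for making and packaging monoamines were divided. Ddc, which encodes the decarboxylase shared by serotonin and catecholamine synthesis, lay at 3.63, 3.69 and 3.91 in the low libraries and at 4.29, 4.80 and 5.54 in the high ones. No low library reached the high range, and the low values all sat near background. It rose by 1.24 ± 0.20 (limma adjusted p = 0.0224). Slc18a2, the vesicular monoamine transporter gene, lay at 4.68, 5.50 and 7.04 in the low and 6.99, 7.57 and 8.07 in the high libraries. It rose by 2.02 ± 0.35 (4.05-fold, limma adjusted p = 0.0349), and its sides overlap through GSK-3DKO 4 (7.04). GSK-3DKO 5 (6.95) and 1 (6.53) were also far above the other 5 low libraries, which lay between 4.68 and 5.60. The genes of biopterin cofactor metabolism, Gch1 (+0.28), Gchfr (+0.31), Pts (+0.19), Spr (0.00058) and Qdpr (-0.0015), and Maoa (+0.28), which degrades monoamines, had limma adjusted p of 0.339 to 0.999.

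Dbh and Slc6a2, genes of noradrenaline neurons, did not pass. Dbh, which converts dopamine to noradrenaline, lay at 6.93, 7.44 and 8.09 (lowest, median, highest) in the high libraries. In the low libraries it was 7.81 in GSK-3DKO 5, 7.25 in GSK-3DKO 4 and 6.92 in GSK-3DKO 1, but 4.78, 4.53, 4.43, 4.36 and 3.71 in NoCreControl 2, MCreControl 5, NoCreControl 1, GSK-3DKO 3 and NoCreControl 4. Thus 3 GSK-3DKO libraries with little Slc6a4 had Dbh in or beside the high range. The difference of +2.39 ± 0.56 did not pass (limma adjusted p = 0.0983); within the groups it was +3.24 in NoCreControl, +3.14 in MCreControl and +0.35 in GSK-3DKO. A difference in the split between groups was tested as an interaction, which did not pass for Dbh (unadjusted p = 0.0580, limma adjusted p = 0.9999). Without GSK-3DKO 2, the only high library of that group, Dbh passed (adjusted p = 0.0281), from libraries of the controls alone.

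Slc6a2, the noradrenaline transporter gene, repeated the pattern of Dbh, at 7.44, 7.18 and 6.63 in GSK-3DKO 5, 4 and 1 and at 4.18 to 5.49 in the other low libraries, against a median of 7.24 and a highest value of 7.82 in the high ones. Its difference of +2.07 ± 0.51 did not pass (limma adjusted p = 0.120), but did without GSK-3DKO 2 (0.0206). Within GSK-3DKO it was -0.015, within MCreControl +3.06 and within NoCreControl +2.81. For Slc18a2 the differences were +0.74 within GSK-3DKO, +2.89 within MCreControl and +2.29 within NoCreControl. The interaction did not pass for Slc6a2 or Slc18a2 either, each at a lower unadjusted p than for Dbh. That test rests on 1 high GSK-3DKO and 1 low MCreControl library. Th, the first enzyme of catecholamine synthesis, separated the sides: it lay at 3.36, 4.10 and 4.88 in the low and 5.08, 5.55 and 6.22 in the high libraries. It rose by 1.57 ± 0.28 (limma adjusted p = 0.0349), and its lowest values, in MCreControl 5 (3.36), GSK-3DKO 3 (3.45) and NoCreControl 4 (3.79), lay below those arrays' receptor gene medians. Its highest low values, 4.88 and 4.67, were those of GSK-3DKO 5 and 1. Tfap2b, a transcription factor present in both noradrenaline neurons and the cerebellum, lay at 9.06 to 9.53 in every library and differed by +0.03 ± 0.08. Of 4 measured noradrenaline genes 1 passed (Th), against 0.221% of all genes called higher. Because Dbh and Slc6a2 did not separate the sides, the split is named by Slc6a4 and not by monoaminergic or brainstem content.

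**Figure D1:**
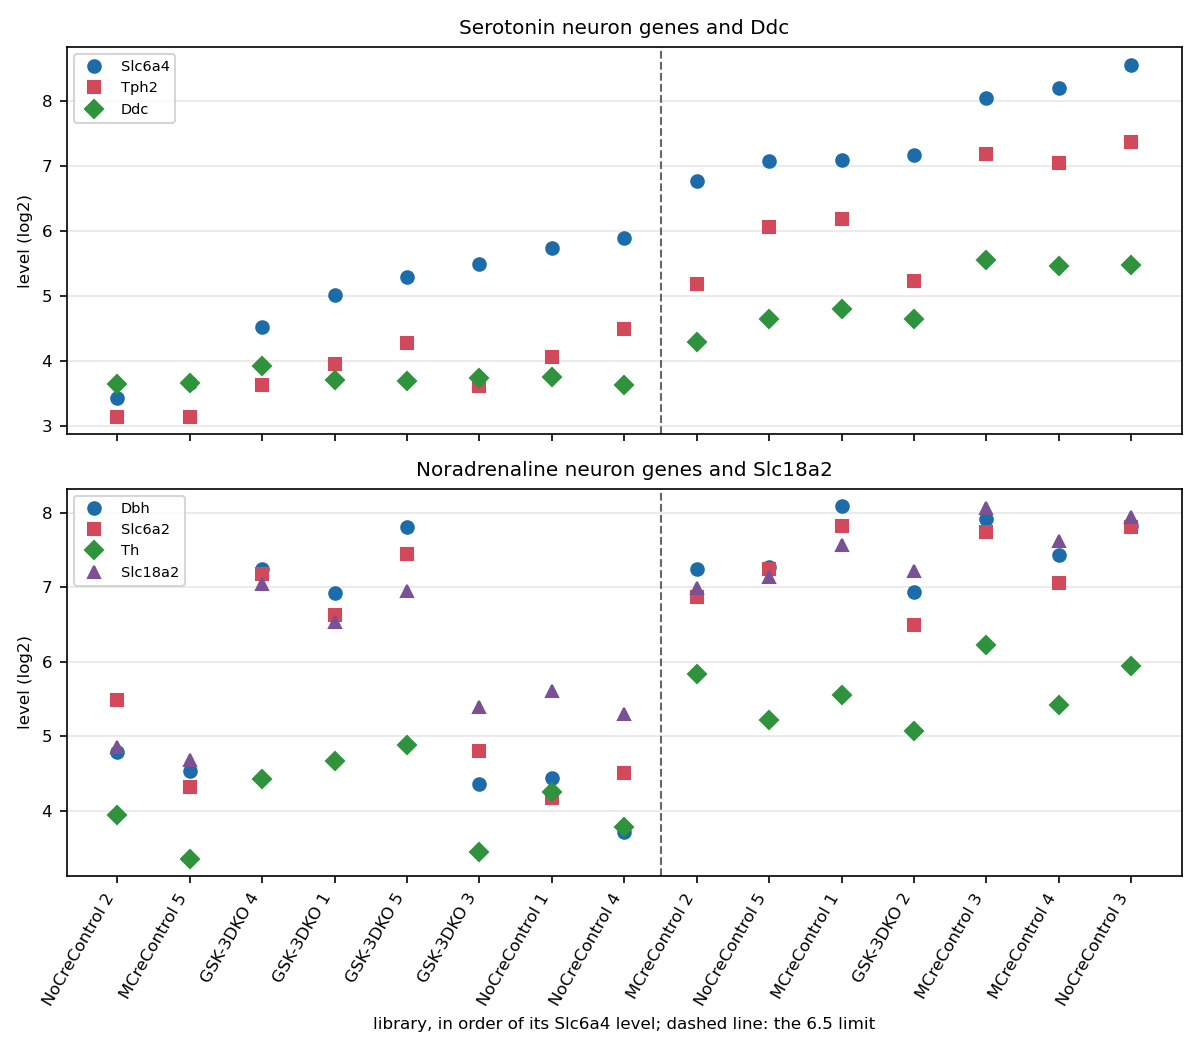
Log2 level of serotonin genes (upper panel) and noradrenaline genes with Slc18a2 (lower panel) in each of the 15 libraries, ordered by Slc6a4, with 1 point per gene and library and a dashed line at the limit of 6.5. Tph2, Ddc and Th lie higher in every library right of the line, whereas Dbh and Slc6a2 in GSK-3DKO 1, 4 and 5 lie in or beside the range on the right.

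The monoamine genes were also fitted after leaving out the 4 libraries named above for their Gsk3a row. Tph2 (+2.72, limma adjusted p = 0.0449) and Ddc (+1.36, 0.0300) still passed. Th (+1.51) and Slc18a2 (+1.98) each had an adjusted p of 0.0639, with a similar size of difference. Dbh and Slc6a2 had adjusted p of 0.130 and 0.175. Without the 4 narrowest arrays none of Tph2, Ddc, Th and Slc18a2 passed. In a bulk sample, fewer cells of a type and less RNA per cell cannot be told apart.

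Across all genes, 50 of 22179 (0.225%) passed a limma adjusted p of 0.05, of which 49 were higher (0.221%) and 1 lower (0.00451%) in the Slc6a4-high libraries. At an unadjusted p under 0.05 there were 1499 higher (6.76%) and 1269 lower (5.72%). The libraries of the sides did not overlap for 105 genes that were higher (0.473%) and 17 that were lower (0.0766%), and 27 of the 50 called genes were among them. Each of the 50 had the same direction within each of the 3 groups, with median differences of 0.67 in NoCreControl, 0.64 in MCreControl and 0.46 in GSK-3DKO; these groups are part of the fit that chose the genes. After centring each array on its median, 32 genes were higher and 6 lower, so the balance depends partly on scaling. Without the 4 narrowest arrays it was 15 higher and 14 lower, and 11 of the 50 still passed.

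The number of calls depended on single libraries. It was 1 (0.00451%) without MCreControl 5, 6 (0.0271%) without NoCreControl 3, 12 without NoCreControl 2, 18 without NoCreControl 4, 20 without MCreControl 1, 21 without NoCreControl 5, 25 without MCreControl 3 or 4, 26 without MCreControl 2 or NoCreControl 1, and 86 without GSK-3DKO 1. MCreControl 5 is the only low library of its group, so leaving it out takes MCreControl out of the comparison. No gene of the 50 passed in every one of the 15 fits that each leave 1 library out, although all 50 kept their sign in them. Cpne7, Rwdd2a, Rimbp2, Amy1 and Rasgrf2 passed in 14 of the 15, lost only without MCreControl 5 (adjusted p = 0.0828 each). Tph2, Calcr, Irs4 and Ache were lost without MCreControl 5 or NoCreControl 3. Ddc and Nap1l5 were lost without MCreControl 5 or NoCreControl 2, 3 or 4. Slc18a2 was lost without MCreControl 1, 4 or 5 or any NoCreControl library, and Th without these or MCreControl 2. Cpeb1, Pgr15l, Lhx4, Pdyn, Mir379, Gad2 and Resp18 passed in 2 to 8 of the 15. Without the 4 libraries against their label, 17 genes passed (0.0766%), 16 of them among the 50.

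Calcr, the calcitonin receptor gene, lay at 3.99, 5.25 and 6.40 in the low libraries, with a median of 7.10 and a highest value of 7.68 in the high ones and no overlap. It rose by 2.08 ± 0.31 (4.22-fold, limma adjusted p = 0.0146), and its highest low values were in GSK-3DKO 5 (6.40) and 4 (5.69). Without the 4 libraries against their label it did not pass (+2.07, adjusted p = 0.0570). Irs4, an adaptor of insulin receptor signalling, lay at 4.09 to 4.77 in the low and 5.10 to 6.04 in the high libraries and rose by 1.12 ± 0.16 (adjusted p = 0.0146). In plain means without the group term this row differed by +1.19 and a second row at lower signal by +0.14. The exchange factor genes Rasgrf2 (+1.18) and Rasgrf1 (+0.74), which activate Ras proteins, and the G protein subunit gene Gng4 (+0.64) rose with overlapping sides. Pgr15l (+0.93) separated the sides, with low libraries near background (3.18 to 4.18). Cbln4, which encodes a secreted synaptic organizer, rose by 1.38 ± 0.22, and its sides overlap: GSK-3DKO 4 (8.03) and 5 (7.74) lay above NoCreControl 5 (7.02), the lowest of the high libraries.

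Further genes also separated the sides. Rwdd2a lay at 5.62 to 6.33 in the low and 6.74 to 7.24 in the high libraries and rose by 0.97 ± 0.13 (limma adjusted p = 0.00747). Nap1l5, an imprinted gene of the nucleosome assembly protein family, rose by 0.72 ± 0.12, and the copine gene Cpne7 by 0.67 ± 0.08. The low libraries held Cpne7 near background (3.86 to 4.24). Cpeb1, which binds polyadenylation elements of mRNAs, rose by 0.63, Resp18, known from neuroendocrine cells, by 0.62, and Rimbp2, an active zone protein gene, by 0.57. Among the homeodomain factors, Lhx4 rose by 0.71 ± 0.13 and Nkx6-2 by 0.56 ± 0.09, with low libraries at or near background (3.31 to 3.73 and 3.35 to 3.84). Without the 4 libraries against their label, Rwdd2a, Nap1l5, Cpne7 and Rimbp2 passed, while Cpeb1, Resp18, Lhx4, Nkx6-2 and Pgr15l had adjusted p of 0.0570 to 0.0737.

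Other called genes, chosen here after their values were seen, included the GABA receptor subunit genes Gabrg3 (+0.64) and Gabrb1 (+0.51). Others, chosen the same way, were the glial genes Hepacam (+0.68) and Aldoc (+0.46), the calcium sensor genes Hpcal4 (+0.50) and Vsnl1 (+0.50), the axon guidance gene Ntn1 (+0.53), the imprinted gene Peg10 (+0.58), the neurosecretory gene Vgf (+0.56), and Amy1 (+0.71), Hap1 (+0.70) and Baiap3 (+0.82). All of these rose. Gabrb1 passed in 11 and Amy1 in 14 of the 15 fits that leave 1 library out, and the others in 3 to 7. Amy1, Hap1, Hpcal4 and Ntn1 passed without the 4 libraries against their label, and the others had adjusted p of 0.0562 to 0.0980. The only gene that fell was the olfactory receptor gene Olfr116 (-0.37 ± 0.06, limma adjusted p = 0.0199), at 3.31 to 3.52 in the low and 2.96 to 3.13 in the high libraries. Every library held Olfr116 below the receptor gene median of its array, so the row was at background throughout. Over 1394 receptor genes the median difference was -0.17, with 250 lower and 8 higher at an unadjusted p under 0.05. That shift moves with the narrower arrays on the low side, and its part in the fall of Olfr116 was not tested.

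**Figure D2:**
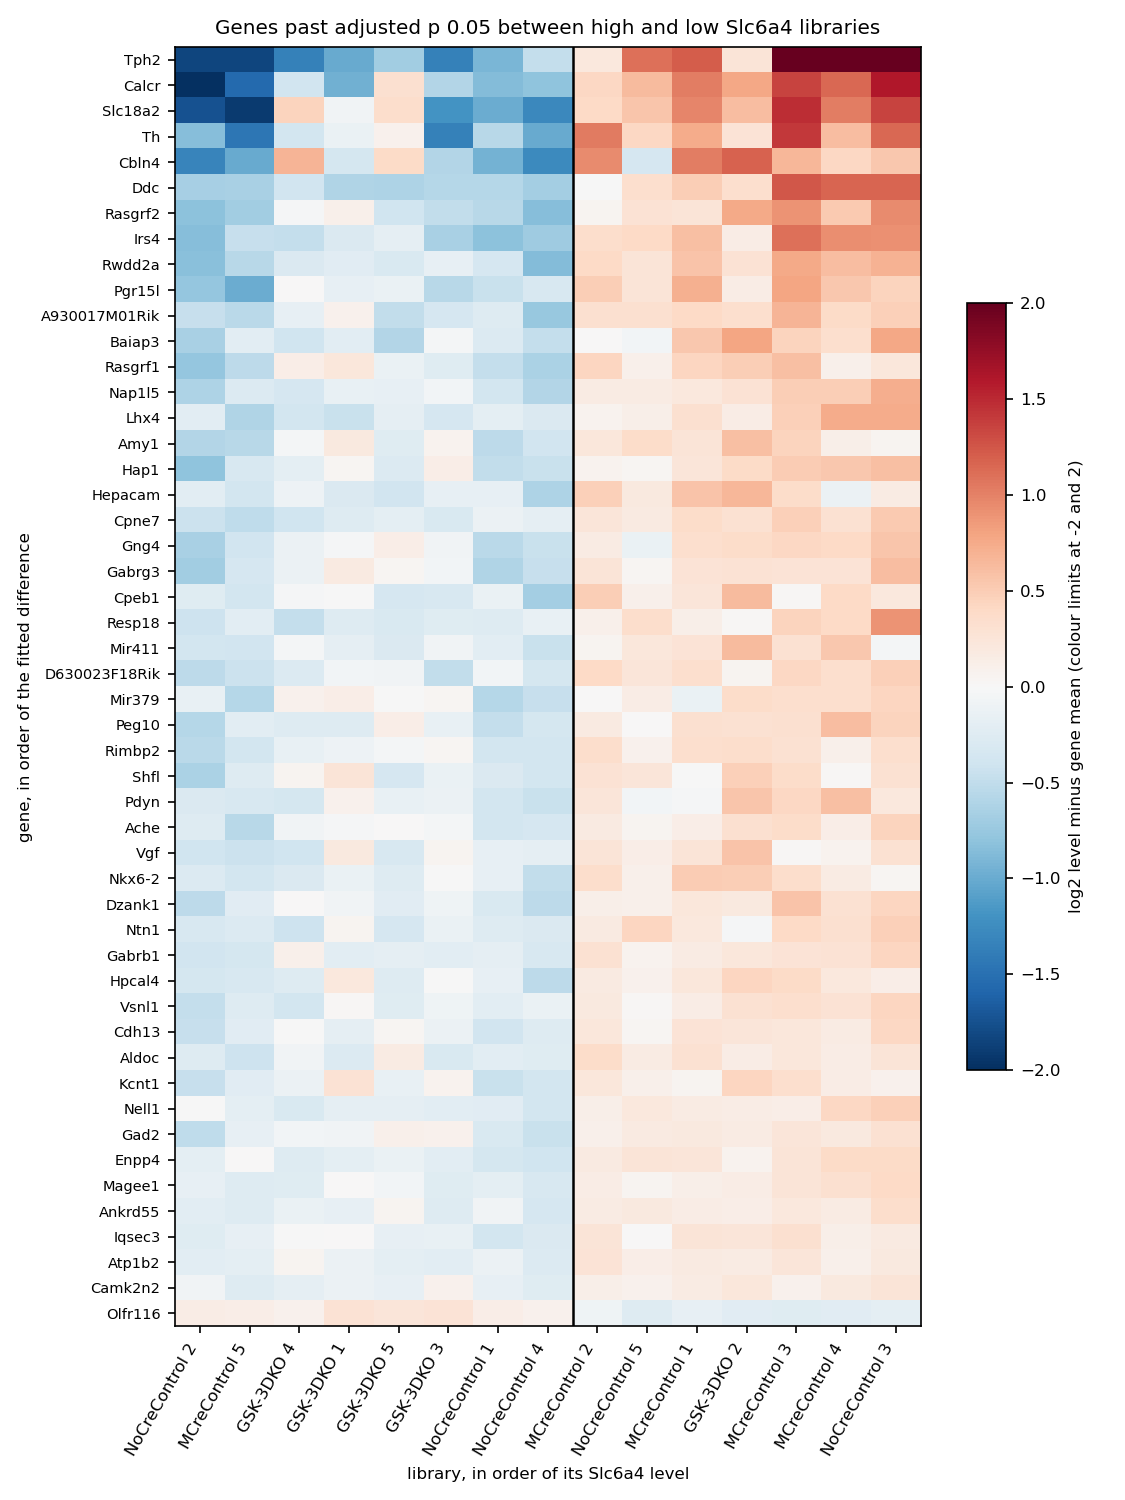
Log2 level minus the gene's mean over 15 libraries (colour, limits at -2 and 2) for the 50 genes past a limma adjusted p of 0.05, with genes ordered by difference and libraries by Slc6a4. For 49 genes the fitted difference is positive, and Olfr116 in the last row is the reverse; the sides do not overlap for 26 of the 49, and in the others at least 1 low library reaches the range of the right side, as GSK-3DKO 4 does for Slc18a2 and Cbln4.

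Gene lists for other brainstem cells and regions were read beside these calls. Of 27 lists, 6 held a called gene. The 8 called list genes rose, as did 49 of all 50 called genes, and 0.225% of all genes were called. At that share a list of this size with 0 calls cannot be told from all genes. Of 11 cholinergic and motor neuron genes 2 passed, both higher. Ache, the acetylcholinesterase gene (+0.56 ± 0.08, limma adjusted p = 0.0146), lay at 6.40 to 6.98 in the low and 7.02 to 7.41 in the high libraries, and Lhx4 is named above. In that list 7 differences were positive, 4 genes were higher at an unadjusted p under 0.05, and the median was +0.09. Of 6 glycine and GABA neuron genes 1 passed, the GABA synthesis gene Gad2 (+0.43 ± 0.08, adjusted p = 0.0495), which is also expressed in cerebellar inhibitory neurons. All 6 differences were positive, 5 genes were higher at that unadjusted p, and the median was +0.37. Of 18 neuropeptide genes 1 passed, the prodynorphin gene Pdyn (+0.57 ± 0.11, adjusted p = 0.0442), with low libraries near background (3.49 to 4.01). There 13 differences were positive and 5 genes higher at that unadjusted p. Over all genes 6.76% were higher at it. In each list the largest difference, +0.83, +0.95 and +0.83 in turn, belonged to a gene that did not pass. Without the 4 libraries against their label Pdyn passed (adjusted p = 0.0477), and Ache (0.0570) and Gad2 (0.0774) did not.

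Of 8 dopamine neuron genes 0 passed, where 0.225% of all genes were called. Nr4a2, a nuclear receptor of dopamine neuron development, differed by +1.00 ± 0.24 (limma adjusted p = 0.111), although its libraries do not overlap: the low ones lay at 4.49 to 5.83 and the high ones at 6.13 to 7.20. Foxa1, a forkhead factor of the ventral midline, differed by +0.94 ± 0.20 (adjusted p = 0.0660). It lay at 4.50 to 4.75 in the 3 libraries of highest Slc6a4 and at 3.55 to 4.12 in the other high ones. The low libraries held it near background, at 3.10 to 3.59. Rln3, the relaxin-3 gene of the nucleus incertus in the pons, was chosen after its values were seen. It lay at 7.18, 7.18, 6.91 and 6.78 in MCreControl 2 and 3, NoCreControl 5 and MCreControl 4, at 4.40 in NoCreControl 3, and at 3.78 or less in the other 10 libraries. Rln3 was thus near background in MCreControl 1 and GSK-3DKO 2, both Slc6a4-high, and its difference of +1.91 ± 0.63 did not pass (adjusted p = 0.257).

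Hox genes mark the hindbrain behind the cerebellum and the spinal cord. Their mean level was 3.16 to 3.48 in every library, at or below the receptor gene medians, so most members were at background and a difference in them could not be seen here. Of 36 measured, 0 passed in limma, with 0 higher and 2 lower at an unadjusted p under 0.05, and their median was -0.02. Over all genes 6.76% were higher and 5.72% lower at that p. Hoxa2, expressed furthest forward, lay at 7.39 in NoCreControl 3 and 6.22 in GSK-3DKO 5, which stand on opposite sides, and at 3.91 to 5.53 elsewhere (difference +0.39 ± 0.51). Hoxb3 was also highest in NoCreControl 3 (4.41). Hoxb1 was highest in MCreControl 2 (4.54), and Hoxb9 in MCreControl 1 (5.46), GSK-3DKO 4 (4.58) and MCreControl 2 (4.50); both were chosen after their values were seen. The highest values of Hoxb1 and Hoxb9 lay in the same libraries, GSK-3DKO 2, 4 and 5 and MCreControl 1 and 2. In these Hoxb1 lay at 3.35 to 4.54 and Hoxb9 at 3.35 to 5.46, against at most 3.04 and 3.34 elsewhere. Most of these values were at background. Hoxb1 lay above the receptor gene median of its array only in MCreControl 2, and Hoxb9 only in MCreControl 1 and 2 and GSK-3DKO 4. GSK-3DKO 2, 4 and 5 and MCreControl 1 and 2 stand on both sides of the split, and the Gsk3a row is low in them (7.89 to 8.27). A link with that row was not tested.

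Midbrain, glutamate neuron and forebrain lists had 0 calls in 10, 7 and 6 genes, with medians of +0.03, -0.08 and -0.10. Pax7, a factor of the dorsal midbrain and other regions, differed by +0.75 ± 0.19 (limma adjusted p = 0.122) and Otx1 by +0.37. The homeodomain genes Lhx2 (-0.57) and Lhx9 (-0.48) of the glutamate list, and Six3 (-0.21) and Dlx5 (-0.16) of the forebrain list, had adjusted p of 0.369 to 0.720. Among 9 neurofilament and axon genes, Vamp1 (+0.47) and Nefh (+0.39) differed most, with adjusted p of 0.217 and 0.345.

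**Figure D3:**
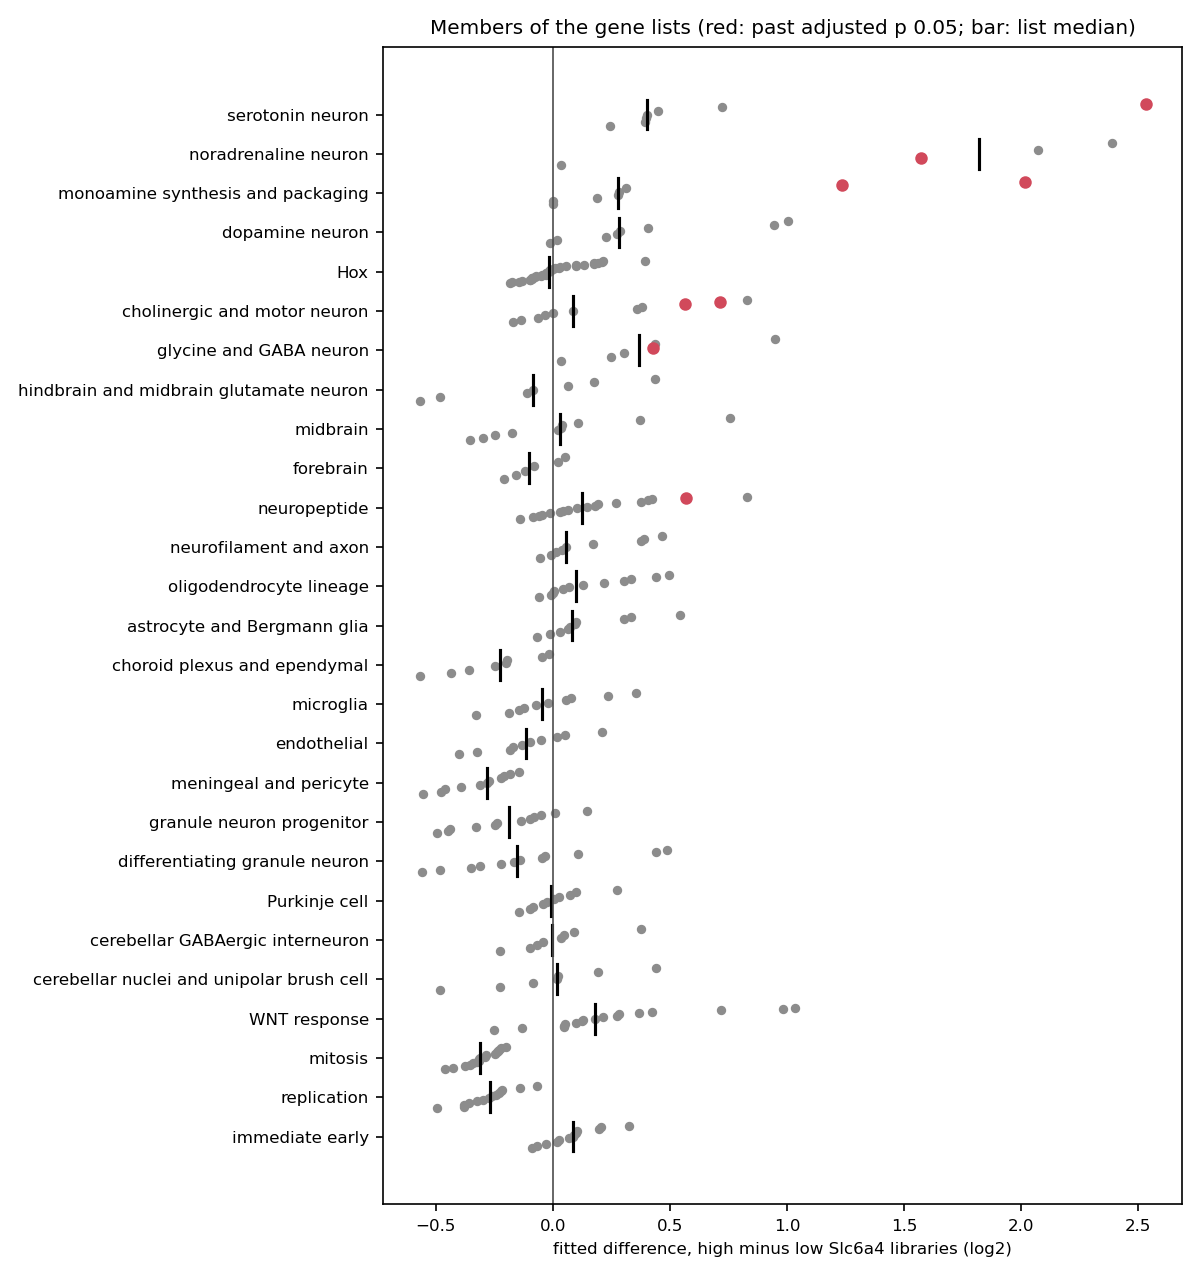
Fitted difference (log2, high minus low Slc6a4 libraries) of each measured member of the 27 gene lists, with 1 point per gene, red where the limma adjusted p is under 0.05, and a black bar at the list median. Red points stand in the upper lists of monoamine, cholinergic, GABA and peptide genes, while the Hox median is at -0.02 and the mitosis and replication points all lie left of 0.

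Cerebellar and non-neuronal lists had no called member. Cell cycle genes leaned lower in the Slc6a4-high libraries: of 17 mitosis genes 7 were lower at an unadjusted p under 0.05 and all had a negative difference, with a median of -0.31, and of 14 replication genes 9 were lower, with a median of -0.27. The background for that count is 5.72% of all genes. The largest were Bub1b (-0.46), a spindle checkpoint kinase gene, the proliferation marker Mki67 (-0.43), the helicase subunit gene Mcm2 (-0.50 ± 0.13, limma adjusted p = 0.142) and the ribonucleotide reductase gene Rrm2 (-0.38). Mcm2 ran from 7.55 to 8.58 in the high and 8.11 to 8.83 in the low libraries, with GSK-3DKO 2, MCreControl 1 and MCreControl 2 lowest (7.55, 7.88 and 7.83). Atoh1, which specifies the granule lineage, was lowest in the same 3 libraries (7.81, 8.34 and 8.03), in which the Gsk3a row is also low (8.22, 8.25 and 8.03). That row is as low in GSK-3DKO 4 and 5 (7.89 and 8.27), where Atoh1 (8.57 and 8.65) lay near its level in GSK-3DKO 1 and 3 (8.54 and 8.57). In MCreControl 3, 4 and 5 and all NoCreControl libraries Atoh1 lay higher, at 8.94 to 9.31. A link of Atoh1 with the Gsk3a row was not tested. Across the split Atoh1 differed by -0.50 ± 0.14 (adjusted p = 0.186). Of 12 progenitor genes 0 passed in limma, with a median of -0.19, and Nhlh1 differed by -0.45.

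Of 12 differentiating granule neuron genes 0 passed in limma and the median was -0.15, with Chrnb4 at -0.56 and Gabra6 at +0.49. Purkinje cell genes (median -0.01, 10 genes, with Ppp1r17 at +0.28 and Foxp2 at -0.14), cerebellar interneuron genes (-0.0046, 8 genes, with Sorcs3 at +0.38 and Ptf1a at -0.22) and nuclear and unipolar brush cell genes (+0.02, 7 genes, with Calb2 at +0.44) had medians near 0. The oligodendrocyte list had a median of +0.10 over 12 genes and the astrocyte list +0.08 over 10. Of their members with the largest differences, the oligodendrocyte genes Sox10 (+0.50, adjusted p = 0.0853) and Olig1 (+0.44, 0.107) and the astrocyte genes Aqp4 (+0.54) and Gfap (+0.34) did not pass. All 8 choroid plexus and ependymal genes (median -0.22, with Aqp1 at -0.57 and Kl at -0.43) and all 11 meningeal and pericyte genes (median -0.28, with Aldh1a2 at -0.55 and Kcnj8 at -0.48) had negative differences, and none passed in limma. The mean log2 level over the meningeal list was 7.23 to 7.61 in the high and 7.06 to 8.21 in the low libraries, and over the choroid list 7.38 to 8.06 and 6.94 to 8.20. Their part in the calls was not tested.

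Endothelial genes (Kdr -0.40, Cdh5 -0.33), microglial genes (Aif1 +0.35, Tmem119 -0.33) and immediate early genes (Egr1 +0.33, Npas4 +0.20) had list medians of -0.11, -0.05 and +0.09. WNT response genes had a median of +0.18 in 17 genes. Wif1 (+1.04 ± 0.83) and Lgr6 (+0.98 ± 0.55) did not pass. Both were high in GSK-3DKO 2, 4 and 5 and MCreControl 1 and 2, which stand on both sides of the split. In these libraries Wif1 lay at 9.36 to 9.81 and Lgr6 at 7.07 to 7.49, against at most 6.28 and 5.33 elsewhere. The Gsk3a row is low in the same libraries (7.89 to 8.27). A link of Wif1 and Lgr6 with that row was not tested. Gsk3b differed by +0.06 ± 0.07 (adjusted p = 0.774).

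Mir379 and Mir411, neighbouring microRNA genes on chromosome 12, rose by 0.59 ± 0.11 and 0.60 ± 0.09 (limma adjusted p = 0.0408 and 0.0205). They lie in the run of noncoding transcripts from Meg3 to Mir409, an imprinted region expressed from the maternal chromosome in brain. The array rows of such genes can detect the long transcripts and precursors, and no mature form was measured separately. Their mature sequences are given because 3′ arms of both genes share a seed, and because these are the members of the run that were called. Sequences are RefSeq's in GRCm38.p6, plus strand, with the seed (bases 2 to 8) in capitals. They lie at chr12:109709065-109709085 and chr12:109709102-109709123 for miR-379 (5p, 3p), and chr12:109710190-109710210 and chr12:109710225-109710246 for miR-411.
mmu-miR-379-5p: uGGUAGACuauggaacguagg
mmu-miR-411-5p: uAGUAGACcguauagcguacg
mmu-miR-379-3p: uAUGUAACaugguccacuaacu
mmu-miR-411-3p: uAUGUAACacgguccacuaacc
Mir411 lay at 4.69, 4.88 and 5.09 in the low and 5.09, 5.41 and 5.77 in the high libraries, meeting at NoCreControl 3 and GSK-3DKO 4. Mir379 overlapped more, at 6.32 to 7.03 and 6.76 to 7.33. Without the 4 libraries against their label neither passed (adjusted p = 0.0570 for each).

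The run from Meg3 to Mir409 was picked out after its values were seen, and its members share transcripts, so it is described without a test. Of 51 measured transcripts 46 had a positive difference and 25 were higher at an unadjusted p under 0.05, against 6.76% of all genes, with a median of +0.29. Of the 43 microRNA genes in it 39 were positive, 19 higher and 1 lower at that p. Of 435 other microRNA genes 178 were positive, with a median of -0.05, and 22 were higher and 58 lower. Over all genes 5.72% were lower at that p, so the other microRNA genes themselves leaned lower. Meg3 differed by +0.32 ± 0.15 and Rian by +0.32 ± 0.10. Mir409 had the largest difference, +0.79 ± 0.16 (limma adjusted p = 0.0616), at 3.84 to 4.96 in the low and 4.89 to 5.56 in the high libraries. Mir376c went the other way (-0.53 ± 0.21).

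**Figure D4:**
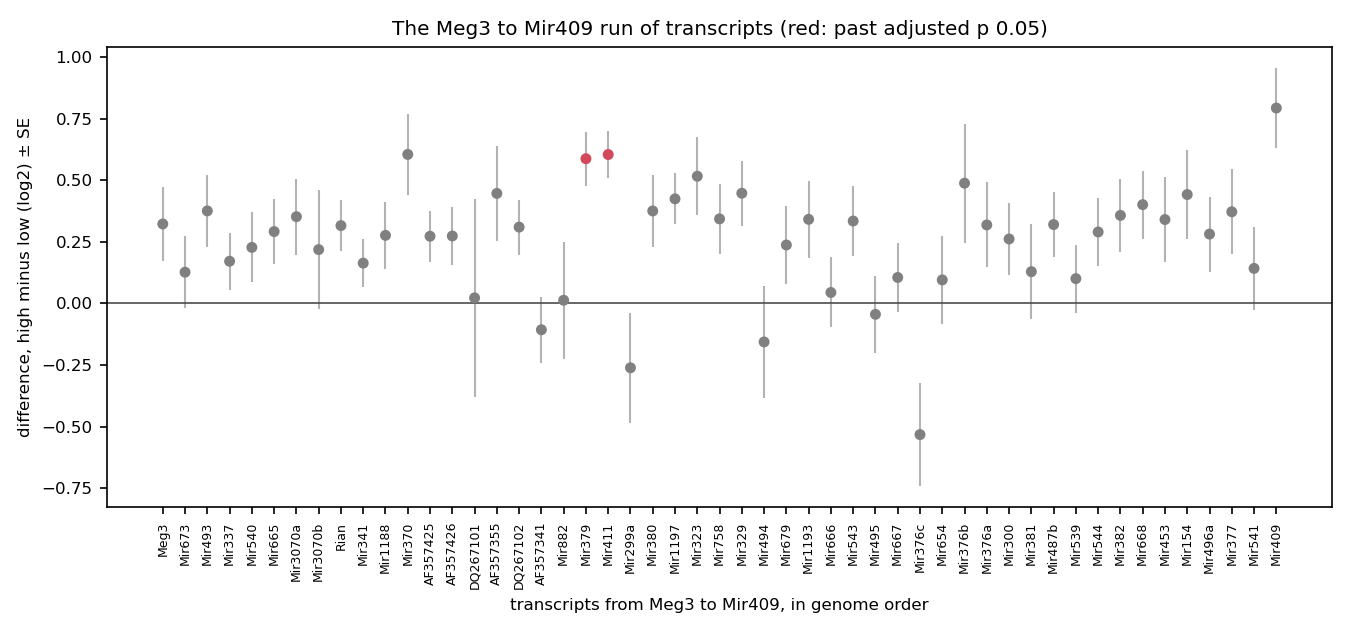
Fitted difference (log2, high minus low Slc6a4 libraries) with its SE for the 51 transcripts from Meg3 to Mir409 in genome order, red where the limma adjusted p is under 0.05. Of the points, 46 lie above 0, and the 2 red ones are Mir379 and Mir411.

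The split is unevenly spread over the groups, so the study's own comparisons were fitted with and without it. By their labels, GSK-3DKO and MCreControl differ in the alpha isoform, but the Gsk3a row goes against the label in 2 of 5 libraries of each group. Without the split term 122 of 22180 genes passed (0.55%), and with it 1 did (0.00451%), Zbtb44 (-0.59 ± 0.07, limma adjusted p = 0.0224). The counts were 120 and 128 without the 4 libraries against their label, and 613 and 966 without the 4 narrowest arrays, so the fall did not hold there. Leaving out 1 library moved the 122 by over 1.5 times each time: to 0 to 4 without any 1 MCreControl library, GSK-3DKO 3 or NoCreControl 2, 3 or 5, to 17, 80 and 32 without GSK-3DKO 1, 2 and 4, to 39 without NoCreControl 1, to 402 without GSK-3DKO 5 and to 1288 without NoCreControl 4. None of the 50 split genes was among the calls of either fit to all libraries. Their median difference was -0.20 without the term, with 47 below 0, and +0.13 with it, with 9 below 0. Tph2 went from -1.60 ± 0.79 to -0.08 ± 0.47, Calcr from -0.65 to +0.60 and Slc18a2 from -0.36 to +0.85, and none of these passed in either fit. With the term the count was 41 without GSK-3DKO 5 and 433 without NoCreControl 4. Leaving out GSK-3DKO 4, MCreControl 1 or NoCreControl 5 gave 2, and leaving out GSK-3DKO 1 or 2, MCreControl 2, 4 or 5, or NoCreControl 2 or 3 gave 0.

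By their labels, GSK-3DKO and NoCreControl differ in both isoforms, although NoCreControl is described as Gska+- and GSK-3DKO 1 and 3 have the Gsk3a row at or beside its level. Here 16 genes passed without the split term (0.0721%) and 65 with it (0.293%), 15 higher and 50 lower, including all 16. The counts were 239 and 304 without the 4 libraries against their label. The 16 became 0 without GSK-3DKO 3 or NoCreControl 1, 2 or 3, 4 without NoCreControl 5, 6 to 8 without MCreControl 1, 2, 3 or 4, 9 without GSK-3DKO 2, 32 without GSK-3DKO 4, 191 without GSK-3DKO 5 and 1546 without NoCreControl 4, and 739 with array weights. The 65 became 0 without GSK-3DKO 2 or NoCreControl 1, 1 without NoCreControl 5, 2 without NoCreControl 2, 10 without NoCreControl 3, 23 without GSK-3DKO 3, 25 without MCreControl 3, 36 without MCreControl 1 or 5, 434 without GSK-3DKO 5 and 1913 without NoCreControl 4. One split gene was among the 65, Cbln4 (limma adjusted p = 0.0497), which was higher in GSK-3DKO, and Atoh1 fell by 0.81 ± 0.15 (adjusted p = 0.0492). Dbh differed by +1.53 ± 0.60 with the term (adjusted p = 0.206) and by +1.05 without it. MCreControl against NoCreControl had 0 calls in limma both ways, with 716 genes at an unadjusted p under 0.05 without the term and 402 with it. These 3 comparisons share libraries and are not independent.

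**Figure D5:**
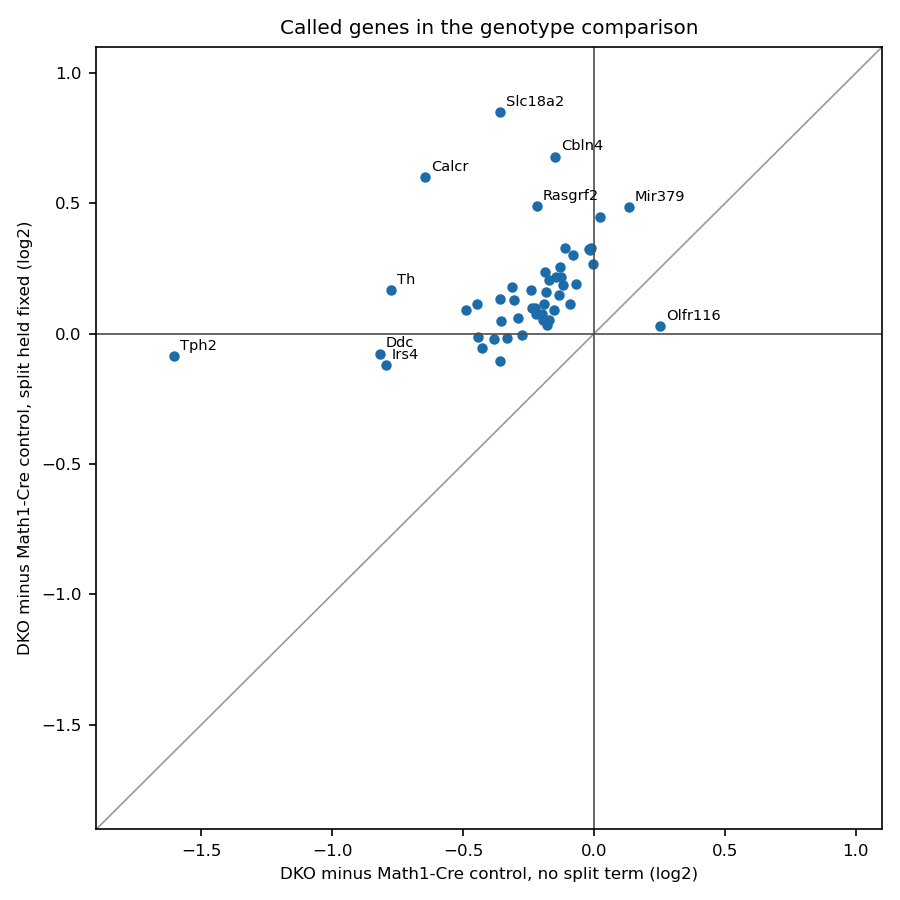
Difference GSK-3DKO minus MCreControl (log2) of the 50 genes called in the Slc6a4 split, without (horizontal) and with (vertical) the split in the model, 1 point per gene, with the diagonal for equal values. Left of 0 lie 47 points on the horizontal axis, while 9 lie below 0 on the vertical axis, and Tph2 moves from -1.60 to -0.08.

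Levels of 2 other genes were added to the model after the data were seen. With Dbh as a term, 4 genes passed (0.018%), none of the 50, and all 50 kept their sign; Tph2 was then +1.85 (adjusted p = 0.333), Ddc +0.99 (0.333) and Slc18a2 +0.78 (0.422). With Eif2s3y as a term, 109 passed (0.491%), 42 of the 50 among them. With the Slc6a4 level in place of the split, 56 passed (0.252%), 25 of the 50 among them, and Tph2 rose by 0.84 and Calcr by 0.67 per log2 unit of Slc6a4.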

How the data were processed

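The deposited values are log2 expression levels, 1 per array row, made by the authors with RMA and Partek 6.6 on build mm9, per the submitters' processing notes; the order of steps and their parameters were not given in the sources used here. They were used as deposited. Of 41345 rows, 23521 carry 1 gene symbol; the row with the highest mean stood for each of 22180 genes, 1 of which, Slc6a4, was left out of the split test. One limma model with a mean per title group and a term for the split was fitted to all 15 libraries (11 residual degrees of freedom, eBayes, two-sided, Benjamini-Hochberg, threshold 0.05). The array number limits precision. The fit was tested on simulated data. Named genes were the monoamine list members, Gsk3a, Gsk3b and Atoh1, the 15 largest rises and falls past the threshold without overlap (passing over predicted, noncoding and receptor genes), up to 4 called members of each other list, or the 2 of largest difference where none passed. Members and lists were chosen with earlier results of these data known. The other settings are in the closing section; those with Dbh, Eif2s3y and the interaction were added after the data were seen. R 4.3.3, limma 3.58.1, Python 3.11.15, pandas 2.3.3 and matplotlib 3.10.9 were used.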

Additional observations from a re-analysis of the deposited data

Results flagged for a closer look

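Slc7a3, an amino acid transporter gene, was the only gene whose difference across the split itself differed between the title groups (limma F test of the interaction, adjusted p = 0.0204, 9 residual degrees of freedom, 891 genes at an unadjusted p under 0.05). It was higher in the Slc6a4-high libraries of NoCreControl (+0.73) and GSK-3DKO (+1.01) and lower in those of MCreControl (-0.55). MCreControl 5, at 7.22, is the only low library of its group, and GSK-3DKO 2, at 7.12, the only high one of its group, so the test leans on single libraries.

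Single libraries stood apart from the rest of their side in 15 of 216 sets of values by Dixon's criterion, and chance marks about 1 in 20. On the low side these were Gata2 in MCreControl 5 (5.92), Ddc in GSK-3DKO 4 (3.91), Pts in GSK-3DKO 3 (5.01), Spr in GSK-3DKO 4 (5.95), Nr4a2 in NoCreControl 4 (4.49), Hoxb3 in GSK-3DKO 5 (3.72), Pax7 in GSK-3DKO 3 (4.61) and Gabrb1 in GSK-3DKO 4 (8.47). On the high side they were Qdpr in GSK-3DKO 2 (6.06), Hoxa2 (7.39), Hoxb3 (4.41) and Ankrd55 (7.29) in NoCreControl 3, Gfap in MCreControl 2 (5.32), Kl in GSK-3DKO 2 (5.79) and A930017M01Rik in MCreControl 3 (7.21).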

How the results depend on the processing

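All 50 called genes kept their sign in every setting that tested them. The count of 50 was 102 with trend and robust moderation, 134 with array weights, 21 with a term for the cg1724 code that the replicate 5 descriptions share, 18 with array spread as a covariate, 29 without the narrow arrays, 123 with the Gsk3a row, 17 without the libraries against their label, 224 without the title group, 4 with Dbh, 109 with Eif2s3y, and 1 to 86 with 1 library left out. Called list genes numbered 8 as reported, 5 with median centring, 13 with array weights, 3 with cg1724 and 2 with array spread. They numbered 3 without the narrow arrays, 3 without the libraries against their label and 14 without the title group. With Dbh they were 0, with Eif2s3y 13, and with 1 library left out 0 to 10. Without the narrow arrays the 3 were En2, Kl and Tac1, so none of the 8 passed there. The 2 with array spread were Ache and Tph2, and the 3 with cg1724 were Ache, Ddc and Tph2. For GSK-3DKO minus MCreControl the 1 call became 0 with quantile normalization, centring, array spread or the Gsk3a row, 54 with array weights, 3 with cg1724, 966 without the narrow arrays, 128 without the libraries against their label, and 0 to 433 with 1 left out. For GSK-3DKO minus NoCreControl the 65 became 166 with the low-value filter, 148 with quantile normalization, 194 with trend and robust moderation, 1437 with array weights, 25 with array spread, 1225 without the narrow arrays, 0 with the Gsk3a row, 304 without the libraries against their label, 20 with the Slc6a4 level, and 0 to 1913 with 1 left out. The cause was not tested. MCreControl minus NoCreControl had 0 calls in limma in each setting run.

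Deviations from the group means correlated at -0.30 to 0.30 between libraries with the same replicate number. Pairs with different numbers were not set beside these, so whether the numbers pair the libraries is not decided. With the replicate block 20 genes passed, 17 of the 50 among them, with 4 list genes, and 0 and 1 in the GSK-3DKO comparisons with MCreControl and NoCreControl.

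The sign changed only for genes that did not pass. With Dbh it changed for Htr5b (-9.9e-05), Maob (-0.10), Slc6a2 (-0.021), Pts (-0.38), Spr (-0.13), Maoa (-0.046), Hoxa2 (-0.88), Hoxb3 (-0.066), Lhx2 (0.39), Lhx9 (0.43), Six3 (0.30), Nefh (-0.011) and Hoxb9 (-0.42). With Eif2s3y it changed for Tfap2b (-0.020) and Hoxb9 (-0.00098), with the Gsk3a row for Spr (-0.0041), Qdpr (0.024) and Hoxb9 (-0.11), and per unit of Slc6a4 for Tfap2b (-0.010), Qdpr (0.0061) and Hoxb9 (-0.010). Array spread turned Tfap2b (-0.028), Gsk3b (-0.015) and Npas4 (-0.045), and leaving out the narrow arrays turned Tfap2b (-0.027), Gsk3b (-0.0086) and Npas4 (-0.028). Array weights turned Spr (-0.021) and Qdpr (0.0068), cg1724 Spr (-0.016) and Qdpr (0.013), centring Spr (-0.032), and quantile normalization Spr (-0.036) and Tfap2b (-0.00026). The replicate block turned Tfap2b (-0.00072) and Spr (-0.010), omitting the title group Qdpr (0.094) and Zbtb44 (0.15), and omitting the libraries against their label Qdpr (0.031), Gabra6 (-0.069), Hoxb1 (-0.040) and Hoxb9 (-0.20). With 1 library left out, values ran from -0.024 to 0.15 for Gsk3b, -0.24 to 0.82 for Hoxa2, -0.13 to 0.36 for Hoxb9, -0.051 to 0.078 for Qdpr, -0.50 to 0.017 for Six3, -0.061 to 0.11 for Spr and -0.055 to 0.15 for Tfap2b.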
